A study of Schima superba and Cryptocarya concinna with 24 samples.

Results

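The subject is a group of 5 assembled transcripts of the subtropical tree Schima superba, of 57053 in its table and 117867 in both tables of the study. The deposited best protein hits described 2 of the 5 as the Rubisco small subunit (CL1651.Contig1 and CL6064.Contig1) and 3 as Rubisco activase (CL430.Contig2, CL430.Contig4 and Unigene11021). They were chosen by their measured levels over the 4 groups of leaf age and light, so all of their differences between these groups are given as a description, without a test. An assembled transcript is called a unigene here, with the identifier of the deposited table, and levels are in FPKM, fragments scaled to unigene length and library size. No genome was used, so the unigenes carry no coordinates.

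Seedlings of S. superba and of a second tree, Cryptocarya concinna, had been taken from a subtropical evergreen forest and grown under full sunlight (100%) or under a black nylon net that let through 30% of it. Leaf RNA was sequenced from mature leaves in full light, mature leaves in low light, young leaves in full light and young leaves in low light, with 3 libraries per group and 12 per species. No genotype, age of the seedlings or duration of shading was given in the labels. Nor do they say whether the 3 libraries of a group are from different plants or from pooled leaves, and the p-values below therefore reflect the spread among these libraries alone, which may be technical.

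Rubisco fixes CO2 in the Calvin cycle and is built from large subunits, encoded in the plastid genome, and small subunits, encoded by a family of nuclear genes. Its active sites become blocked by sugar phosphates, and Rubisco activase, an ATP-dependent chloroplast protein whose activity responds to light and redox state, pulls these inhibitors out. Both proteins are among the most abundant products of nuclear genes in a photosynthetic leaf, and the phosphoglycolate that Rubisco makes when it takes oxygen in place of CO2 is recycled by photorespiration.

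Summed FPKM, a check of the scaling rather than of depth, ran from 769593 to 867163 over the 12 S. superba libraries, and the steps between low values put their relative depth at 0.969 to 1.04. Absolute depth was unknown. The SD of log2 ratios between replicates was 0.368 for young low light replicates 2 and 3, against 0.765 to 1.37 for the other pairs, so these libraries may not be independent. The mature and young low light libraries numbered 1 deviated from their group means together (r = 0.324 across unigenes). The mature and young full light libraries numbered 3 did so too (r = 0.287). For the light comparisons, calls lost without single libraries are given beside the results. The median difference of all 50970 unigenes tested was -0.55 on the log2(FPKM + 1) scale for mature minus young leaves in full light and -0.39 in low light. For full minus low light it was -0.09 in mature and 0.07 in young leaves, and -0.17 for the light difference in mature minus that in young leaves. Median-ratio rescaling brought these to -0.07, -0.05, -0.02, 0.00 and -0.03.

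Chlorophyll a/b binding proteins, which mark the green mesophyll of a leaf and so bear on the labelled tissue, were abundant in all groups. Their 47 unigenes summed to 17951 to 27823 FPKM in mature full light and 32934 to 44343 in mature low light, against 10680 to 15202 in young full light and 28117 to 38043 in young low light. Vascular markers (12 unigenes) summed to 181 to 208, 119 to 249, 287 to 376 and 207 to 273 FPKM in the same order of groups. The 28 unigenes of epidermis and guard cell summed to 114 to 150, 141 to 198, 372 to 432 and 273 to 290 FPKM, and the 8 of dividing cells to 59.99 to 99.6, 59.7 to 70.2, 167 to 185 and 132 to 138 FPKM. Organelle-encoded and ribosomal RNA (27 unigenes) summed to 254 to 1552, 335 to 616, 137 to 144 and 130 to 149 FPKM, and 10 unigenes with words of other organisms in their descriptions to 290 to 369, 253 to 341, 138 to 168 and 140 to 149 FPKM. No marker unigene was at 0 in every library. In full light the sums of all 6 lists separated mature from young leaves, while in low light those of chlorophyll a/b binding proteins and of vascular markers overlapped. The chlorophyll a/b binding sums also separated full from low light at both ages. The part of these levels in the results below was not tested, and in whole leaves fewer cells of a type cannot be told apart from less RNA per cell.

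CL1651.Contig1 was the most abundant of the 5. Its best hit was a small subunit of Panax ginseng (E value 8.35e-85, from the authors' deposited table), and it ranked between 1 and 9 among all unigenes in each library. The libraries of mature full light gave 17673, 22029.9 and 20435 FPKM, and those of mature low light 19755, 24079.7 and 20605. Young full light gave 3734, 3518 and 1694 FPKM and young low light 10999.5, 8921 and 5122. Every mature library was thus above every young one, the mature groups overlapped, and every young full light library was below every young low light one. In means, mature leaves stood at 6.72 times the young level in full light and at 2.57 times in low light. Young leaves in full light stood at 0.357 times those in low light.

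CL6064.Contig1, with a partial small subunit of Gossypium raimondii as its best hit (E value 2.08e-24, authors' deposited table), had a much lower level in young leaves. Mature full light libraries gave 6628, 5105 and 16272 FPKM and mature low light 3068, 7400.03 and 7121. Young full light libraries gave 90.1, 57.4 and 47.7 FPKM and young low light 179, 317 and 183. The mature groups overlapped and spread widely, with a coefficient of variation of 64.9% in full light, where the third replicate stood far above the others. The young groups did not overlap, full light being the lower. Mature leaves had 143 times the young mean in full light and 25.9 times in low light, so this unigene made up 30.1 ± 12.997% of the small subunit sum in mature full light and 20.9 ± 6.53% in mature low light, against 2.23 ± 0.576% in young full light and 2.83 ± 1.06% in young low light (SD, n = 3).

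CL430.Contig2 carried most of the activase level. Its best hit was activase 1 of Ziziphus jujuba (E value 0, authors' deposited table). The orthology entry deposited for it was instead the 26S proteasome regulatory subunit T4 (E value 2e-06). CL430.Contig4 and Unigene11021 had no orthology entry, so the activase names rest on the best hits. Mature full light libraries gave 5845, 8567 and 8699 FPKM and mature low light 11140, 13100 and 9266. Young full light libraries gave 324, 317 and 161 FPKM, and young low light 792, 839 and 490. No pair of groups overlapped. The order was mature low light, mature full light, young low light and young full light, with mature means 28.8 times the young ones in full light and 15.8 times in low light. Full light means were 0.690 times those of low light in mature leaves and 0.378 times in young leaves. The mature light difference was -0.54 on the log2 scale and ran from -0.67 to -0.36 when each library was left out in turn.

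CL430.Contig4, whose best hit was an activase of Nelumbo nucifera (E value 2.21e-108, authors' deposited table), ordered the young groups the other way. Mature full light libraries gave 1529, 2399 and 2068 FPKM and mature low light 1615, 2321 and 2009.6, which overlapped. Young full light libraries gave 27.6, 38.5 and 29.8 FPKM, all above young low light with 19.1, 13.7 and 12.8. In young leaves the full light mean was 2.10 times the low light one. Mature means were 62.6 times the young ones in full light and 130 times in low light.

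Unigene11021 followed CL430.Contig4 at a lower level. Its best hit was a Cucumis sativus activase (E value 3.67e-16, authors' deposited table). Mature full light libraries gave 634, 901 and 895 FPKM and mature low light 730, 959 and 939, which overlapped. Young full light libraries gave 17.8, 22.4 and 16.5 FPKM, all above young low light with 6.27, 6.51 and 5.63. In means, young full light stood at 3.08 times young low light, and mature leaves at 42.9 times young leaves in full light and 143 times in low light. The mature groups did not overlap once the low light libraries numbered 1 were left out, full light then being the lower.

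**Figure D1:**
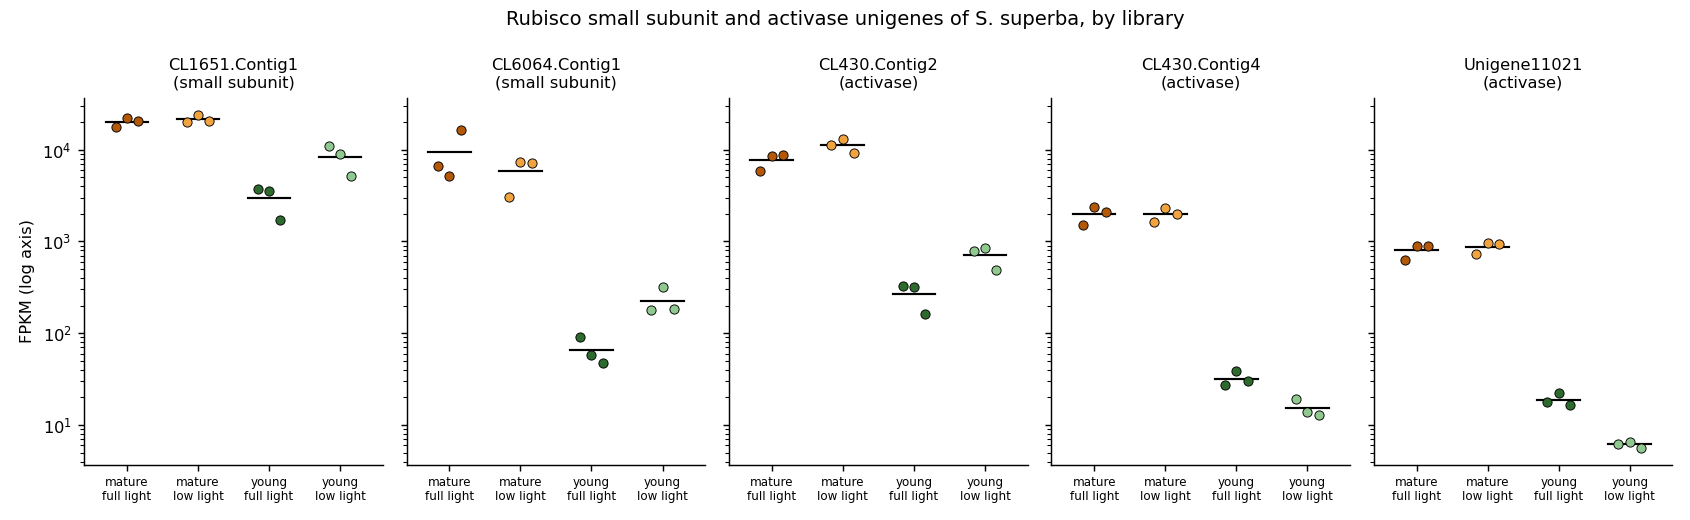
FPKM of the 5 unigenes in each of the 12 S. superba libraries (log axis), with 3 points and a line at the mean for each group. All mature libraries lie above all young ones; young full light lies below young low light for CL1651.Contig1, CL6064.Contig1 and CL430.Contig2 and above it for CL430.Contig4 and Unigene11021.

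Counted together, 5 of 5 were higher in every mature library than in every young one, in full and in low light, and under quantile normalization 4 of 5 were so in either light. Over all unigenes tested, 11.9% did so in full light and 13.1% in low light. In young leaves, 3 of 5 were lower in every full light library than in every low light one, as were 13.1% of all unigenes, and 2 of 5 were higher, as were 19%. Under quantile normalization 2 were lower and 2 higher. In mature leaves 1 of 5 was lower, with 10.1% of all unigenes, and 0 were higher, with 5.21%. Since the members were chosen on these same groups, nothing is read from the shares.

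On the log2(FPKM + 1) scale, the differences of mature minus young leaves in full light were 2.83 for CL1651.Contig1, 7.01 for CL6064.Contig1, 4.89 for CL430.Contig2, 5.91 for CL430.Contig4 and 5.34 for Unigene11021. In low light the same differences were 1.43, 4.64, 4.005, 6.94 and 6.93. The first 3 unigenes thus had the larger age difference in full light and CL430.Contig4 and Unigene11021 the larger one in low light. For full minus low light in young leaves the values were -1.50, -1.78 and -1.43 for the first 3, and 1.03 and 1.47 for CL430.Contig4 and Unigene11021. In mature leaves they were -0.10, 0.59, -0.54, 0.00 and -0.12. The light difference in mature minus that in young leaves was 1.40, 2.37, 0.88, -1.03 and -1.59. Quantile normalization, which fixes the values of the top ranks, brought the age differences of CL1651.Contig1 to 0.047 in full light and 0.23 in low light, and its light by age value to -0.18.

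**Figure D2:**
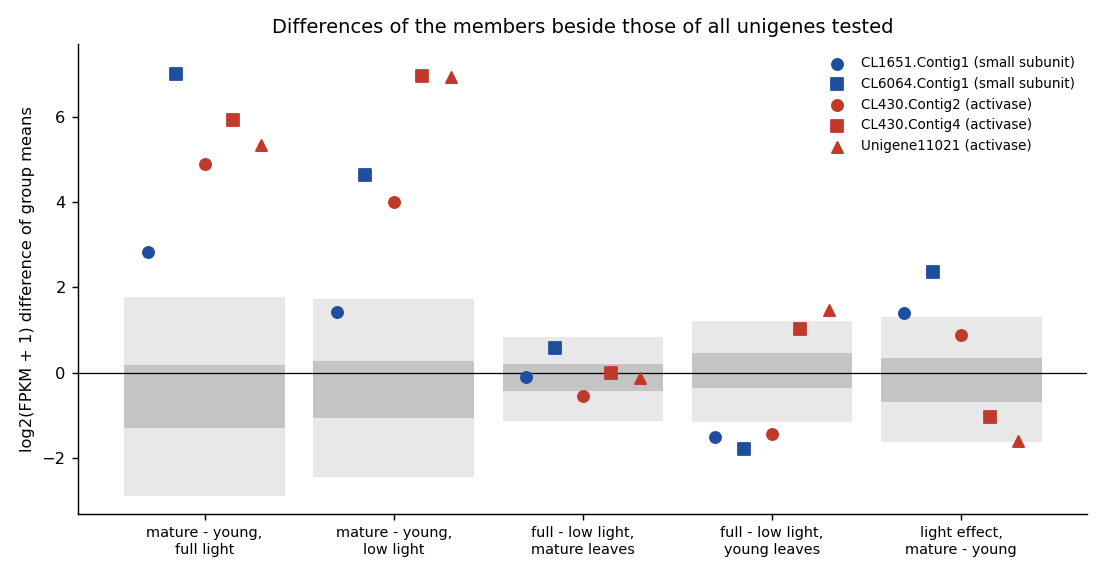
Differences of group means on the log2(FPKM + 1) scale for the 5 unigenes (points) in the 5 comparisons of S. superba, with the 5th to 95th percentile (light grey) and the 25th to 75th percentile (dark grey) of all 50970 unigenes tested. In young leaves CL430.Contig4 and Unigene11021 lie above 0 and the other members below it; the value of CL1651.Contig1 for the light effect by age, 1.40 here, was -0.18 under quantile normalization.

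The sum of both small subunit members was 29381 ± 6501 FPKM in mature full light and 27343 ± 4341 in mature low light, against 3047 ± 1137 in young full light and 8573 ± 2993 in young low light (SD, n = 3). The mature groups overlapped, and the young groups did not. The 3 activase members summed to 10512 ± 2171 FPKM in mature full light and 14026 ± 2135 in mature low light, against 318 ± 95.9 in young full light and 728 ± 191 in young low light. No pair of these groups overlapped. With all 14 unigenes described as activase summed, the mature groups did overlap. Full light libraries then gave 10058, 14577 and 14652 FPKM and low light ones 16299, 19323 and 14573. The small subunit pair took 3.62 ± 0.649% of summed FPKM in mature full light and 3.22 ± 0.545% in mature low light, against 0.380 ± 0.143% in young full light and 1.02 ± 0.352% in young low light.

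For every 100 FPKM of small subunit there were 36.2 ± 6.59 FPKM of activase in mature full light and 51.7 ± 7.52 in mature low light, against 10.7 ± 1.13 in young full light and 8.73 ± 1.24 in young low light. The ratio was higher in every mature library than in every young one. It was lower in full than in low light in mature leaves, with libraries between 31.8 and 43.7 against 44.1 and 59.1. With every unigene annotated to either family counted, these ranges overlapped, at 25.5 to 39.3 in full and 36.6 to 45.2 in low light. In young leaves the ratio of the members was higher in full light, with libraries between 9.66 and 11.9 against 7.31 and 9.59. However, its log2 difference of 0.30 turned to -0.99 under quantile normalization. CL430.Contig2 made up 73.3 ± 1.22% of the activase sum in mature full light, 79.5 ± 3.40% in mature low light, 83.1 ± 5.05% in young full light and 97.0 ± 0.633% in young low light. CL430.Contig4 made up 19.0 ± 1.24%, 14.2 ± 2.24%, 10.7 ± 3.47% and 2.15 ± 0.484% in the same order. The level of Unigene11021 was 40.8 ± 2.93%, 44.4 ± 2.78%, 59.3 ± 4.78% and 41.5 ± 7.67% of that of CL430.Contig4.

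**Figure D3:**
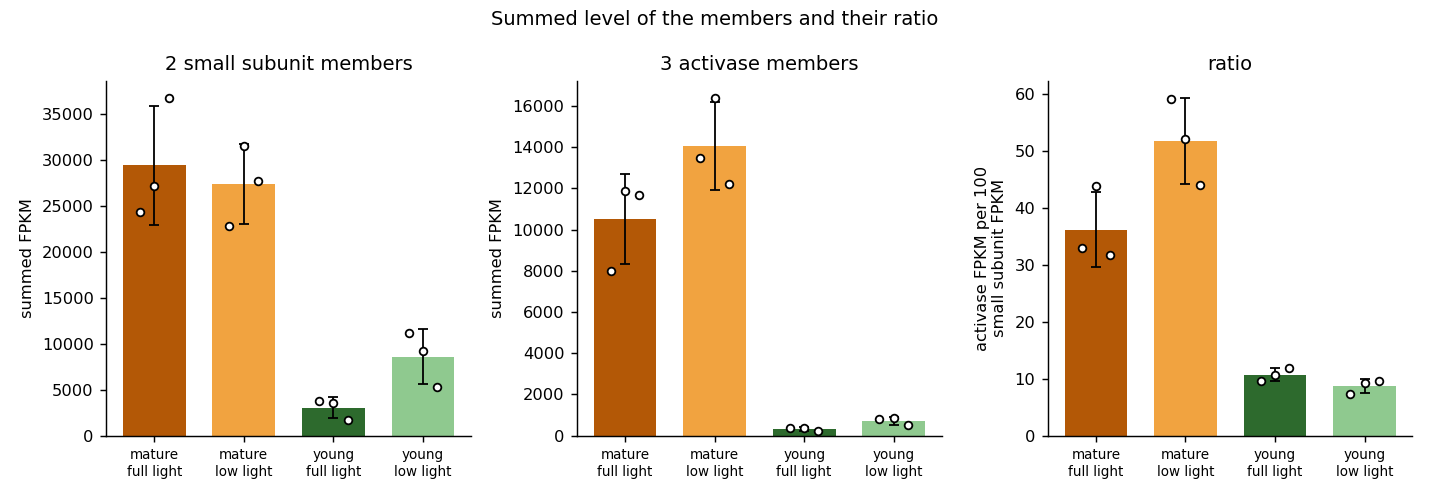
Summed FPKM of the 2 small subunit members and of the 3 activase members, and activase FPKM per 100 FPKM of small subunit, in the 4 groups of S. superba; bars are means, error bars SD and points the 3 libraries. Both sums and the ratio are higher in mature leaves; the ratio of young full to young low light, 10.7 against 8.73, was the other way round under quantile normalization.

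Contigs whose names share a CL number belong to one cluster of similar sequence and can share reads, so their separate levels are uncertain. Cluster CL430 held 8 contigs, and CL1651 and CL6064 held 2 each. When clusters were summed, CL430.Contig4 could not be told from CL430.Contig2, and the light difference in young leaves of their cluster was -1.36. Cluster CL6064, summed, had a mature minus young difference of 3.96 in full light and 2.13 in low light on the log2 scale. CL6064.Contig1 alone had 7.01 and 4.64, so the size of its age difference depends on keeping the contigs apart. Unigene11021, which belongs to no cluster, had the pattern of CL430.Contig4, but both were chosen on these values. Whether they are parts of the same transcript was not tested, since no sequences were aligned.

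In all, 9 S. superba unigenes were described as small subunit and 14 as activase. Of the 7 small subunit unigenes that were not members, 5 passed the filter of 1 FPKM in at least 3 libraries, and of the 11 such activase unigenes 9 did. Next to the members stood CL6064.Contig2 in the small subunit family. Its libraries gave 1644, 2003 and 3733 FPKM in mature full light and 3461, 3178 and 2286 in mature low light, against 635, 698 and 519 in young full light and 2409, 1801 and 1221 in young low light. Unlike CL6064.Contig1 of its own cluster, it overlapped between mature and young leaves in low light. CL1651.Contig2 lay at 1622 to 2294 FPKM in mature full light and 1662 to 2957 in mature low light, against 354 to 451 in young full light and 982 to 1898 in young low light.

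Among activase unigenes, Unigene3761 stood next to the members with 1394, 1395 and 1866 FPKM in mature full light and 1766, 1721 and 1599 in mature low light, against 108, 123 and 62.0 in young full light and 189, 211 and 120.0 in young low light. The young groups overlapped. Unigene37881 gave 604 to 1228 FPKM in mature full light and 621 to 1055 in mature low light, against 12.6 to 25.9 in young full light and 13.9 to 22.6 in young low light, a mean over all libraries of 454 FPKM that was above that of Unigene11021 with 428. Unigene23286 gave 16.5 to 72.6, 72.0 to 128, 0.68 to 0.71 and 2.34 to 4.93 FPKM in the 4 groups. In full light every mature library was above every young one for 7 of the 11 activase unigenes outside the members. This also held for 3 of the 7 small subunit ones, with 1 the other way, against 11.9% of all unigenes tested. In low light it held for 8 activase and 1 small subunit unigene, against 13.1%. These counts include the 2 unigenes of each family that did not pass the filter. In young leaves no activase unigene outside the members was higher in every full light library than in every low light one, as were 19% of all unigenes tested. Lower were 2, Unigene23286 and Unigene5512, as were 13.1% of all. Unigene5512 had only 0.05 to 0.14 FPKM in young full light and 0.19 to 0.53 in young low light. The values that chose the members also left these unigenes out, so nothing is read from the counts.

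A further 3 unigenes had no description but had the small subunit as their orthology entry in the deposited table, and were noticed after their values were seen. Unigene10158 gave 2958 to 5627 FPKM in mature full light and 3843 to 4882 in mature low light, against 600 to 715 in young full light and 1651 to 2972 in young low light. Unigene10157 gave 3497, 2603 and 8768 FPKM in mature full light and 1449, 3744 and 3792 in mature low light, against 5.99, 9.47 and 13.04 in young full light and 29.6, 30.7 and 7.58 in young low light. Like CL6064.Contig1, it was highest in the third mature full light library and lowest of the mature leaves in the first low light one. Unigene1155 gave 171 to 332 FPKM in mature full light and 218 to 426 in mature low light, against 35.6 to 40.7 in young full light and 199 to 343 in young low light, so young and mature leaves overlapped in low light. The members held between 52.9% and 73.1% of the summed level of these 12 small subunit unigenes in a library, and between 70.1% and 84.8% of that of the 14 activase ones. With all of them summed, the differences of mature minus young leaves were 3.16 in full and 1.54 in low light for the small subunit and 4.93 and 4.198 for activase, on the log2 scale.

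**Figure D4:**
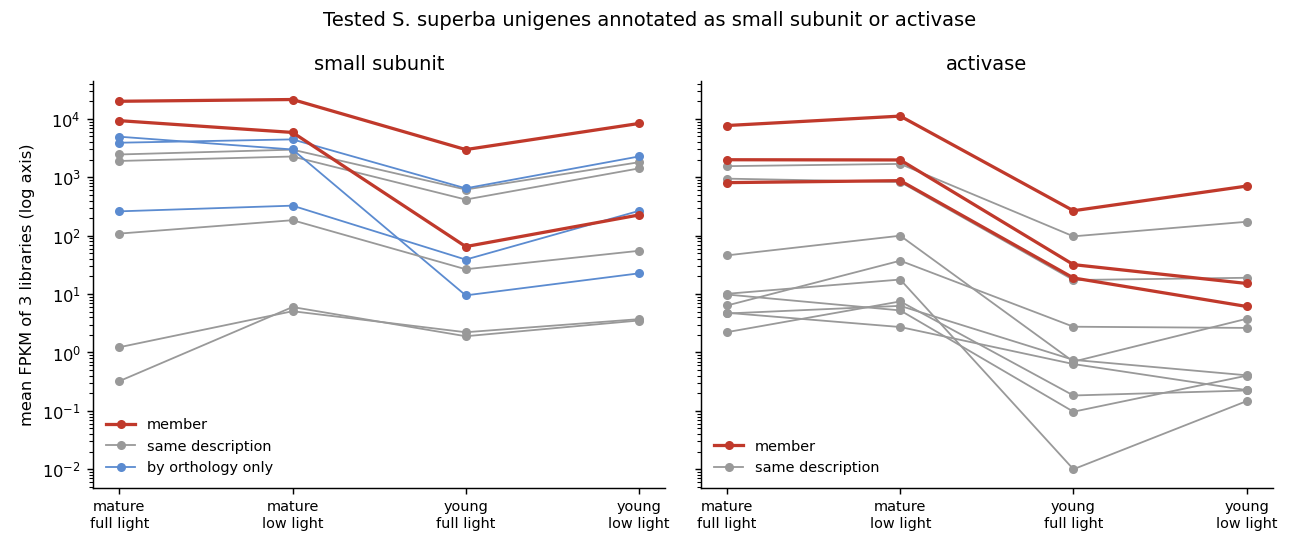
Mean FPKM over 3 libraries (log axis) of each tested S. superba unigene annotated as small subunit or activase in the 4 groups, with members in red, others of the same description in grey and those annotated by orthology only in blue; a mean of 0 is drawn at 0.01. The steepest small subunit lines between mature and young leaves are CL6064.Contig1 and Unigene10157. Activase lines ending lower in young low than in young full light are 2 members and, at lower levels, CL430.Contig6, CL5085.Contig2 and Unigene21347.

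The patterns of the members over the 12 libraries were compared by the root mean square difference of centred log2(FPKM + 1) values. CL430.Contig4 and Unigene11021 were the closest pair at 0.25. CL1651.Contig1 and CL430.Contig4 were the farthest of the 5 members at 2.35, and the small subunit members lay 1.94 apart. CL430.Contig2 was nearer to CL6064.Contig1 (0.96) than to CL430.Contig4 (1.36). Among 5876 other unigenes with a usable description and a mean of at least 10 FPKM, those nearest to CL1651.Contig1 were CL3367.Contig1 (a haloacid dehalogenase-like hydrolase, 0.25), CL2222.Contig1 (aminomethyltransferase of the glycine cleavage system, 0.27) and Unigene66 (ferredoxin-like, 0.30), against a median of 1.57. Nearest to CL430.Contig2 were Unigene6573 (glycolate oxidase, described as peroxisomal (S)-2-hydroxy-acid oxidase, 0.26), Unigene1546 (beta-carotene isomerase D27, 0.31) and CL8182.Contig2 (also glycolate oxidase, 0.32), against a median of 2.62. CL430.Contig4 and Unigene11021 had the same first neighbours, CL233.Contig2 (galactinol synthase family, 0.43 and 0.42) and CL4377.Contig1 (a putative transcription factor, 0.48 and 0.54). Next came Unigene13627 (metallothionein-like, 0.51) for CL430.Contig4 and Unigene1376 (gibberellin-regulated protein 1-like, 0.58) for Unigene11021. CL6064.Contig1 had no neighbour closer than CL135.Contig2 (cytochrome P450 93A3-like, 0.80), followed by Unigene9097 (ARG7-like, 0.84) and Unigene20413 (0.84). All of these unigenes share the 12 libraries, and the likeness is a description.

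The genes around Rubisco were tested with limma over all 50970 unigenes, with calls at an adjusted p under 0.05. Lists were sets of descriptions and so took in some look-alikes, such as cytosolic aldolases in the Calvin cycle and mitochondrial chaperonins in the assembly list. For age in full light 46% of all unigenes passed the test, for age in low light 38.7%, for light in mature leaves 0.855%, for light in young leaves 5.33% and for light by age 1.61%. By direction, 4930 of the 50970 were higher and 18496 lower in mature leaves in full light. In low light 4684 were higher and 15046 lower. For light in young leaves 1537 were higher and 1180 lower in full light, and for light by age 258 were higher and 564 lower. Median-ratio rescaling made the age splits of all unigenes less uneven, at 8455 higher against 11151 lower (full light) and 7359 against 9661 (low light). Quantile normalization gave 9341 higher against 10642 lower (full light) and 7911 against 9271 (low light).

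The only unigene described as the large subunit, Unigene4291, was higher in mature leaves in full light (log2 4.29 ± 0.89 SE, limma adjusted p = 0.00216). Its mature full light libraries gave 1239, 115 and 83.0 FPKM and mature low light 48.6, 119.6 and 20.4, against 11.7, 16.7 and 6.10 in young full light and 16.8, 13.5 and 11.6 in young low light. The first mature full light library stood far above the others of its group. Without any single library the difference stayed between 3.08 and 5.02 and past the threshold. Plastid messages lack the long poly(A) tail, and the labels do not say how RNA was selected, so its level was not set beside that of the small subunit.

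The assembly and modification list had 10 tested unigenes of 15. It holds Rubisco accumulation factor and chaperonins, of which only some are described as binding the large subunit. In full light 1 was higher and 4 were lower in mature leaves (median -0.49), and in low light 0 were higher and 5 lower (median -0.9999). Over all unigenes the lower ones also outnumbered the higher ones, with medians of -0.55 in full and -0.39 in low light. Under median-ratio rescaling these splits were 4 higher and 2 lower in full light, and 1 higher and 5 lower in low light, and quantile normalization gave 2 and 2 in full light. The higher one was Unigene28532, Rubisco accumulation factor 1, an assembly chaperone of the large subunit (log2 0.81 ± 0.28, adjusted p = 0.0329), with 52.3 ± 16.1 FPKM in mature and 29.9 ± 10.8 in young leaves (SD, n = 3). It lost the call without mature full light replicate 1 or 2 or young full light replicate 3, with only the groups compared, and without the low light libraries numbered 1. The lower ones in full light were CL7470.Contig1 (chaperonin 60 beta 4), CL7470.Contig2 (chaperonin 60 beta), Unigene2000 (chaperonin 60 alpha 2) and the mitochondrial CL1419.Contig2, joined in low light by CL1419.Contig1 of the same cluster. In full light the calls of CL7470.Contig2 and Unigene2000 were lost under median-ratio rescaling and quantile normalization, and that of CL7470.Contig2 also without mature full light replicate 2 or young full light replicate 3. CL7470.Contig1 had 1.59 ± 0.335 FPKM in mature and 15.2 ± 3.13 in young leaves in low light (log2 -2.63 ± 0.28, adjusted p = 3.46e-05). CL1419.Contig2 had 8.36 ± 1.497 FPKM in mature and 26.7 ± 0.775 in young leaves in full light (log2 -1.58 ± 0.21, adjusted p = 8.40e-05). The most abundant chaperonin unigenes were CL1626.Contig3 and CL2776.Contig2, described as the beta and alpha subunits of the Rubisco large subunit-binding protein. Both missed limma's threshold for age in full light (adjusted p = 0.0910 and 0.598) and in low light (0.863 and 0.121). Their levels were 174 to 459 FPKM and 92.1 to 216 FPKM over all 12 libraries.

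Of 42 tested Calvin cycle unigenes of 51, 19 were higher and 5 lower in mature leaves in full light (median 0.52), and 19 were higher and 6 lower in low light (median 0.67). Phosphoribulokinase, which makes the substrate of Rubisco, was among the higher ones. Its unigene CL172.Contig2 gave 1893, 2265 and 2006 FPKM in mature full light and 1804, 1774 and 1382 in mature low light, against 235, 247 and 152 in young full light and 477, 443 and 311 in young low light. Its age differences were 3.31 ± 0.27 in full light (adjusted p = 3.26e-06) and 2.02 ± 0.27 in low light (adjusted p = 0.000182). Sedoheptulose-1,7-bisphosphatase (Unigene9326), an enzyme of the regeneration of that substrate, rose by 3.90 ± 0.32 in full light (adjusted p = 3.10e-06) and 2.53 ± 0.32 in low light (adjusted p = 0.000115). Chloroplast phosphoglycerate kinase (CL166.Contig1), which uses the product of Rubisco, rose by 2.20 ± 0.30 (adjusted p = 0.000122) and 1.42 ± 0.30 (adjusted p = 0.00326). The largest change belonged to a cytosolic aldolase, CL1942.Contig1, with 236 ± 164 FPKM in mature and 0.600 ± 0.243 in young leaves in full light (log2 7.001 ± 0.74, adjusted p = 1.79e-05). The 5 lower ones in full light were CL2333.Contig4 (a second cytosolic aldolase), CL5712.Contig1 and CL5712.Contig2 (2-phosphoglycerate kinase-related), CL490.Contig1 (CP12-3) and CL5013.Contig2 (triosephosphate isomerase), the last of which did not hold its direction under median-ratio rescaling (0.018) or with clusters summed (0.93), and lost its call without mature full light replicate 2 or young full light replicate 3.

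Of 26 tested photorespiration unigenes of 28, 13 were higher and 8 lower in mature leaves in full light (median 0.88), and 13 were higher and 7 lower in low light (median 0.68). Median-ratio rescaling gave 15 higher and 4 lower in full light, and 14 higher and 3 lower in low light. Glycolate oxidase, which starts the peroxisomal part of the pathway, showed the largest changes. Unigene6573 gave 626, 696 and 893 FPKM in mature full light and 817, 872 and 779 in mature low light, against 30.6, 32.2 and 18.5 in young full light and 81.9, 90.1 and 57.6 in young low light. It was 4.74 ± 0.25 higher in mature leaves in full light on the log2 scale (adjusted p = 1.67e-07). In low light the largest change was that of another glycolate oxidase, Unigene6803 (3.996 ± 0.73, adjusted p = 0.00126), with 47.7 ± 41.6 FPKM in mature and 1.29 ± 0.374 in young leaves. Over the assembly, Calvin cycle and photorespiration lists, 33 were higher and 17 lower of 78 tested in full light, and 32 were higher and 18 lower in low light. After median-ratio rescaling these were 42 higher and 10 lower in full light, and 35 higher and 13 lower in low light, and after quantile normalization 40 and 10 in full light. Among all unigenes the same rescaling gave 8455 higher against 11151 lower (full light) and 7359 against 9661 (low light). Quantile normalization gave 9341 against 10642 among all unigenes (full light). Before any rescaling the list medians were 0.50 and 0.29, against -0.55 and -0.39 for all unigenes.

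The redox and carbonic anhydrase list, with the enzymes that pass reducing power to thioredoxins and those that interconvert CO2 and bicarbonate, had 10 tested unigenes of 10. In full light 3 were higher and 4 lower in mature leaves (median 0.03), and in low light 2 were higher and 4 lower (median -0.49). Median-ratio rescaling gave 5 higher and 1 lower in full light and 2 higher and 0 lower in low light, where quantile normalization gave 2 and 2. CL2325.Contig1, the variable chain of ferredoxin-thioredoxin reductase, had 37.3 ± 3.72 FPKM in mature full light and 32.6 ± 23.1 in mature low light, against 2.26 ± 0.760 in young full light and 1.24 ± 0.936 in young low light. Its age differences were 3.58 ± 0.50 (adjusted p = 0.000131) and 3.70 ± 0.50 (adjusted p = 0.000163). The other higher ones were CL2325.Contig2 of the same cluster and, in full light, Unigene28772 (nectarin-3-like). Lower ones were Unigene18588 (NADPH-dependent thioredoxin reductase A), Unigene5721 (gamma carbonic anhydrase) and Unigene37877 (beta carbonic anhydrase) in both lights, with Unigene3183 (nectarin-3-like) in full and Unigene5720 (gamma carbonic anhydrase) in low light. The difference of Unigene5721 in full light turned to 0.043 under median-ratio rescaling. The same rescaling ended the calls of Unigene3183 in full light, Unigene37877 in both lights and Unigene18588, Unigene5720 and Unigene5721 in low light, and a pseudocount of 0.1 or the replicate block that of Unigene28772. The calls of Unigene28772 and Unigene3183 in full light and of Unigene37877 and Unigene5721 in both lights were each also lost without some single library. Unigenes named for a count of 5 or fewer, phosphoribulokinase, sedoheptulose-1,7-bisphosphatase, phosphoglycerate kinase, accumulation factor 1 and the abundant chaperonins were picked after their values were seen, as were CL1651.Contig2, Unigene37881 and Unigene23286 above.

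**Figure D5:**
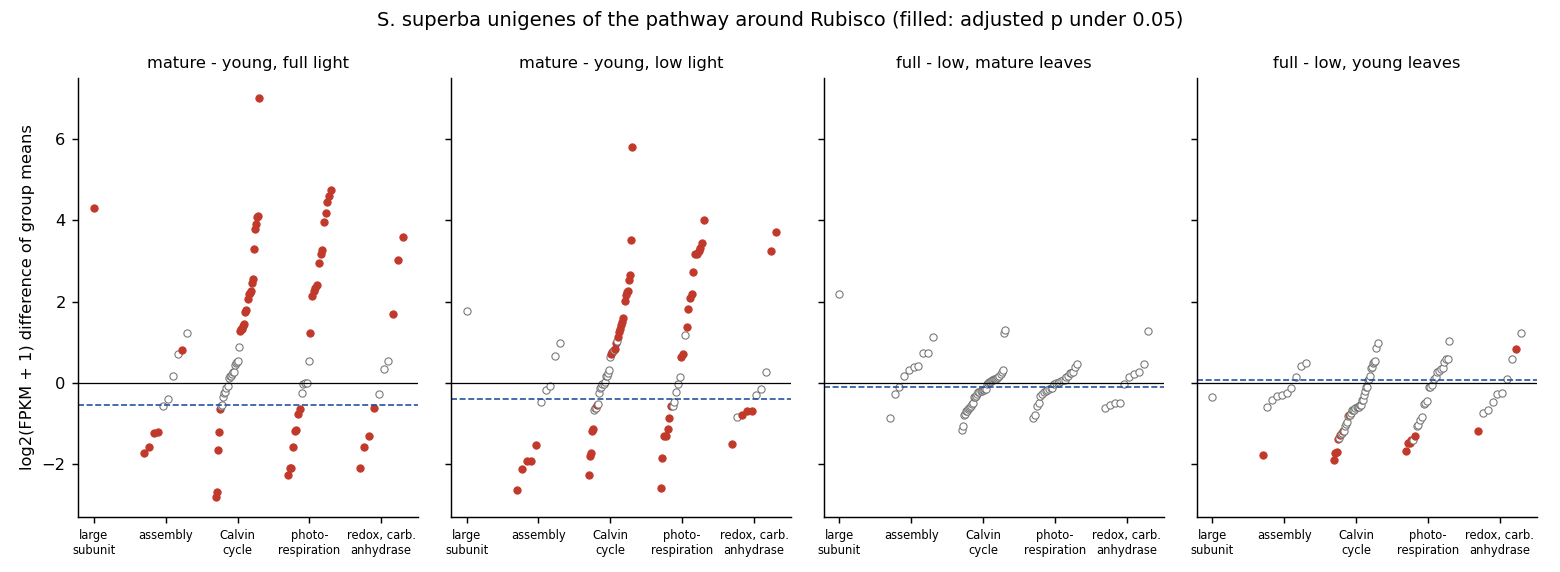
Difference of group means on the log2(FPKM + 1) scale for each tested S. superba unigene of the 5 lists around Rubisco in 4 comparisons; filled points have a limma adjusted p under 0.05, and the dashed line is the median of all unigenes tested. Filled points are many and lie on both sides of 0 for leaf age, are absent for light in mature leaves and lie below 0 in the chaperonin, Calvin cycle and photorespiration columns for light in young leaves.

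For light in mature leaves, 0 of the 78 unigenes of the assembly, Calvin cycle and photorespiration lists passed limma's test, with 11 at an unadjusted p under 0.05 and a median of -0.07. Median-ratio rescaling gave 1 call. In young leaves 0 were higher and 13 lower in full light, with a median of -0.51 against 0.07 for all unigenes. These were 1 of 10 assembly, 7 of 42 Calvin cycle and 5 of 26 photorespiration unigenes. The count was 4 without young low light replicate 2, which left CP12 (Unigene6742), glyceraldehyde-3-phosphate dehydrogenase A (Unigene19159), phosphoglycolate phosphatase (CL4075.Contig1) and D-glycerate 3-kinase (CL5673.Contig1). These 4 calls held under every setting tried. The light difference in mature leaves exceeded that in young leaves for 3 of the 78 and was below it for 0, with 22 at an unadjusted p under 0.05. The chlorophyll a/b binding unigenes had the same direction, as 13 of their 33 tested unigenes passed the test as lower in full light in young leaves and 0 as higher, and the part of mesophyll cells in the result was not tested.

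CP12, a small redox-controlled protein that binds phosphoribulokinase and glyceraldehyde-3-phosphate dehydrogenase, had the largest light difference of the Calvin cycle list in young leaves. Its unigene Unigene6742 gave 141, 148 and 90.3 FPKM in young full light, against 492, 467 and 434 in young low light (log2 -1.90 ± 0.26, adjusted p = 0.00485). The mature groups overlapped, with 300.2, 518 and 511 FPKM in full light, against 495, 458 and 469.7 in low light. A second CP12 unigene, Unigene6743, was also lower (log2 -1.70 ± 0.31, adjusted p = 0.0148), a call lost without young low light replicate 2 and without the low light libraries numbered 1. Sedoheptulose-1,7-bisphosphatase (Unigene9326) was lower (log2 -1.28 ± 0.32, adjusted p = 0.0447), a call that was lost without any library but mature full light replicate 1 or 3. Its young full light libraries gave 56.9, 61.7 and 31.3 FPKM and its young low light ones 130.3, 142 and 88.0. Phosphoribulokinase (CL172.Contig2) missed the threshold (-0.97 ± 0.27, adjusted p = 0.0665).

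All 5 photorespiration unigenes that passed for light in young leaves were lower in full light. They were CL4075.Contig1 (phosphoglycolate phosphatase, the first enzyme of the pathway), the glycolate oxidases Unigene6573 and CL8182.Contig1, the mitochondrial serine hydroxymethyltransferase Unigene7467 and CL5673.Contig1 (D-glycerate 3-kinase, the last enzyme). The call of Unigene6573 was lost without young low light replicate 2, and that of CL8182.Contig1 without any of 4 young libraries (full light replicates 1 and 3, low light replicates 1 and 2). That of Unigene7467 was lost without any young library but full light replicate 2, and without mature full light replicate 3 or mature low light replicate 1. It was also lost with a pseudocount of 0.1 and with only the groups compared. CL4075.Contig1 gave 32.1, 39.2 and 31.0 FPKM in young full light, against 122, 131 and 85.6 in young low light (log2 -1.68 ± 0.25, adjusted p = 0.00700). In the assembly list CL7470.Contig1, described as chaperonin 60 beta 4, gave 5.06, 3.76 and 2.58 FPKM in young full light, against 16.9, 17.1 and 11.6 in young low light (log2 -1.77 ± 0.28, adjusted p = 0.00869), a call lost without young low light replicate 2. In the redox list Unigene33522, NADPH-dependent thioredoxin reductase 3-like, was lower (-1.18 ± 0.29, adjusted p = 0.0433), with 10.5 ± 1.12 FPKM in young full light against 25.01 ± 2.32 in young low light. That call was lost without any single young or mature low light library, with the replicate block and with a pseudocount of 0.1. Unigene18588, thioredoxin reductase A, was higher (0.83 ± 0.17, adjusted p = 0.0219), with 46.7 ± 1.22 FPKM in young full light against 25.8 ± 1.78 in young low light. That call was lost without any single young library.

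In C. concinna, whose RNA was extracted with another kit, whose table was normalized separately and whose unigene names are unrelated, 12 unigenes were described as small subunit and 16 as activase. Of the 10 and 15 that were tested, 5 small subunit and 8 activase unigenes were higher in mature leaves in full light and none were lower, where 28.4% of all unigenes passed in either direction. In low light 6 small subunit unigenes were higher and 1 lower, and 12 activase unigenes were higher and 0 lower, where 37.8% passed. The most abundant small subunit, Unigene433, gave 9269, 11188 and 7779 FPKM in mature full light and 11215, 15818 and 8441 in mature low light, against 3033, 3052 and 4099 in young full light and 3398, 3294 and 2235 in young low light. Its age differences were 1.47 ± 0.34 (limma adjusted p = 0.00658) and 1.97 ± 0.34 (adjusted p = 0.000884). The call in full light was lost under quantile normalization, with a difference of 0.53, and with only the groups compared. The most abundant activase, CL3335.Contig2, gave 1934, 1561 and 2182 FPKM in mature full light and 2459, 2135 and 1272 in mature low light, against 97.4, 124 and 159 in young full light and 134, 45.5 and 61.3 in young low light. Its age differences were 3.91 ± 0.38 (adjusted p = 1.89e-05) and 4.69 ± 0.38 (adjusted p = 3.52e-06).

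Light in young leaves gave 0 calls among these 25 C. concinna unigenes, with 2 small subunit and 6 activase unigenes at an unadjusted p under 0.05, where 0.0302% of all unigenes passed. The median difference was 0.06 for the small subunit and 0.77 for activase, against 0.34 for all unigenes. The activase sum was 1110 ± 47.9 FPKM in young full light and 615 ± 260 in young low light, the reverse of the order of the activase sum in S. superba. In mature leaves 1 small subunit unigene passed, where 0.0566% of all did. This was Unigene7495, with 13.04 ± 7.30 FPKM in full light and 0.497 ± 0.315 in low light (log2 3.13 ± 0.35, adjusted p = 0.00656, a call lost with only the groups compared), also the small subunit unigene that was lower in mature leaves in low light. For light by age 0 passed, with 5 and 4 at an unadjusted p under 0.05, where 0.00566% of all did. Summed over all described unigenes, activase per 100 FPKM of small subunit was 39.0 ± 16.5 in mature full light and 33.5 ± 12.1 in mature low light, against 17.1 ± 2.87 in young full light and 8.17 ± 2.50 in young low light. In S. superba the measure also counted the 3 small subunit unigenes annotated by orthology only, which lowers it, and no such unigenes were added in C. concinna. It was 31.3 ± 7.11, 41.3 ± 4.37, 9.06 ± 0.614 and 6.56 ± 0.916 in that order. The species were not tested against each other. The median difference of all C. concinna unigenes tested was -0.17 for age in full light, 0.27 for age in low light, -0.05 for light in mature and 0.34 for light in young leaves.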

How the data were processed

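The study gives triplicate Illumina leaf profiles of both species, per the labels. The authors deposited FPKM for every unigene and library, made with RSEM 1.2.12 per the submitters' processing notes. Which assembler, aligner and filters they used is not given in the sources used here. FPKM are no counts, so no count model was run, and without absolute depth there is no counting interval.

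A unigene was tested where 3 or more of its species' 12 libraries reached 1 FPKM, which left 50970 in S. superba and 53005 in C. concinna. limma 3.58.1 (R 4.3.3) was fitted to log2(FPKM + 1) with the 4 group means and a variance trend, two-sided, and p-values were adjusted over all tested unigenes by Benjamini-Hochberg. These log2 differences understate changes of low values. They run mature minus young and full minus low. Light by age is the light difference of mature leaves less that of young leaves. Errors are SD of 3 libraries for levels and SE for log2 differences. The code was tested on simulated data. Python 3.11.15, pandas 2.3.3, numpy 2.4.6 and matplotlib 3.10.9 made the summaries.

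The members, the gene lists (word patterns on the deposited descriptions, a unigene counting in the first list it matched) and the markers were chosen with earlier results of these data known. The rule for names took, per list and comparison, the called unigene with the largest change and a mean of at least 10 FPKM in its higher group, the 3 patterns nearest to each member, and the most abundant non-member and C. concinna unigene of either family. Alternatives were a pseudocount of 0.1, testing without the filter, a minimum mean of 5 FPKM, median-ratio and quantile scaling, the replicate block, fits of only the groups compared, summed clusters, each library left out, both low light libraries numbered 1 left out, and young low light replicates 2 and 3 averaged.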

Additional observations from a re-analysis of the deposited data

Results flagged for a closer look

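In 3 unigenes of the lists around Rubisco the light difference itself differed between mature and young leaves, by the interaction term of limma over 50970 unigenes. For CP12 (Unigene6742) the light effect in mature leaves was 1.76 ± 0.37 (SE) above that in young leaves on the log2 scale (adjusted p = 0.0427), with -0.14 in mature and -1.90 in young leaves. For D-glycerate 3-kinase (CL5673.Contig1) the gap was 1.63 ± 0.28 (adjusted p = 0.0279), with 69.7 ± 12.9 FPKM in mature full light and 62.5 ± 9.04 in mature low light, against 13.6 ± 2.48 in young full light and 39.6 ± 5.09 in young low light (SD, n = 3). For chloroplast glyceraldehyde-3-phosphate dehydrogenase A (CL2192.Contig4) it was 1.56 ± 0.33 (adjusted p = 0.0462), with 855 ± 140 and 754 ± 75.6 FPKM in mature full and mature low light, against 146 ± 31.1 and 382 ± 60.7 in young full and young low light. The calls of Unigene6742 and CL2192.Contig4 were lost without any single library except mature full light replicate 1, and also with a pseudocount of 0.1, with no filter and with the replicate block. That of CL5673.Contig1 was lost without any of 7 libraries (mature full light replicates 2 and 3, mature low light replicate 1, young full light replicates 1 and 3, young low light replicates 2 and 3). All 3 were lost without the low light libraries numbered 1 and with young low light replicates 2 and 3 averaged.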

How the results depend on the processing

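For the members, every age difference kept its sign under all settings tried, but that of CL1651.Contig1 came close to 0 under quantile normalization (0.047 in full and 0.23 in low light). Median-ratio rescaling moved the summed small subunit difference between mature and young leaves to 4.01 in full and 2.20 in low light, and that of activase to 5.75 and 4.76. Quantile normalization fixes the values of the highest ranks, where CL1651.Contig1 lies. With it the small subunit sum gave 0.73 for age in full light, 0.68 for age in low light, -0.27 for light in young leaves and 0.043 for light by age. The activase sum gave 4.41 and 3.59 for age in full and low light. The activase to small subunit ratio then gave 3.68 and 2.91 for age, -0.22 for light in mature leaves, -0.99 for light in young leaves and 0.77 for light by age, and CL1651.Contig1 -0.18 for light by age. With clusters summed, CL430.Contig4 carries the level of CL430.Contig2 and gave -1.36 for light in young leaves and 0.93 for light by age, and the ratio gave 2.15 and 2.82 for age in full and low light. CL6064.Contig1 then carries the level of its whole cluster and gave 3.96 and 2.13 for age in full and low light. Members whose groups did not overlap were 4 in place of 5 under quantile normalization for age in full light, age in low light and light in young leaves. For light in mature leaves they were 0 with clusters summed, 2 without the low light libraries numbered 1, and 1 to 2 without single libraries. Without the low light libraries numbered 1 the ratio gave 2.34 for age in low light and -0.60 for light by age.

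Pathway unigenes called for light by age were 1 with a pseudocount of 0.1, 1 with no filter, 7 with a mean FPKM of at least 5, 7 with median-ratio rescaling, 8 with quantile normalization, 5 with clusters summed, 0 without the low light libraries numbered 1, 0 with young low light replicates 2 and 3 averaged, and 0 to 4 without single libraries. For light in mature leaves they were 1 with median-ratio rescaling, 1 with clusters summed and 0 to 1 without single libraries, and for light in young leaves 4 to 14. C. concinna Rubisco unigenes called were 1 for light by age with median-ratio rescaling and 1 with quantile normalization, and 0 for light in mature leaves with only the groups compared. CL5013.Contig2 (0.018 with median-ratio rescaling and 0.93 with clusters summed for age in full light, 0.13 with clusters summed for age in low light) and Unigene5721 (0.043 with median-ratio rescaling for age in full light) changed direction. Of named calls, 9 of 33 for age in full light, 8 of 33 for age in low light, 11 of 15 for light in young leaves, 3 of 3 for light by age and 1 of 1 for light in mature leaves were lost under at least 1 setting. Over all S. superba unigenes, calls for light in mature leaves were 436, against 22 with only the groups compared, 117 without the low light libraries numbered 1, 183 with young low light replicates 2 and 3 averaged and 262 with the replicate block. Calls for light in young leaves were 2717, against 1303 with a pseudocount of 0.1 and 620 with those replicates averaged, and calls for light by age 822, against 476, 93 and, with the replicate block, 331. Without the low light libraries numbered 1, these were 1734 and 239. Without single libraries the calls ran from 120 to 485 for light in mature leaves, from 388 to 3382 for light in young leaves and from 60 to 699 for light by age. The lowest were without mature low light replicate 1 for the first and young low light replicate 2 for the others, and light in young leaves gave 941 without young low light replicate 3 and 1040 without young full light replicate 3. A mean of at least 5 FPKM, which tests fewer unigenes, gave 14412 calls in place of 23426 for age in full light and 12158 in place of 19730 in low light. Beyond the constructions named, the cause was not tested.

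Of 18 correlations per species between the deviations of same-numbered replicates, 3 (S. superba) and 5 (C. concinna) exceeded 0.1. The mature and young low light libraries of S. superba gave 0.324, 0.104 and 0.0999 for numbers 1 to 3, and the full light libraries numbered 3 gave 0.287. The mature and young full light libraries numbered 1 and 2 gave 0.030 and 0.031. Same-numbered S. superba libraries from different lights lay between -0.027 and 0.038. Not every pair exceeded 0.1, and the labels give the numbers no meaning, so they were not taken as pairs. The replicate block joins full and low light libraries of a number, so a pairing of leaf ages within a light was not tested. With the replicate block 13 pathway unigenes were called for light in young leaves, 51 for age in full light, 51 for age in low light, 2 for light by age and 0 for light in mature leaves. Light by age used all groups in the fit with only the groups compared, so it was not refitted there. Absolute depth was unknown, and 3 libraries per group limit what can be called.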
